A study of Mus musculus with 12 samples.

Results

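The genes that load peptides onto MHC class I molecules and carry them to the cell surface were examined in regulatory T cells from lymph nodes of NOD mice and of mice labelled NOD.Drak2-/-. The set was named by symbol and held 10 genes: H2-K1, H2-D1, B2m, Tap1, Tap2, Tapbp, Psmb8, Psmb9, Psmb10 and Nlrc5. A row named with the symbol existed for 9 of the 10, among 19505 genes tested in all, and each of these 9 had a single row. Nlrc5, the transcriptional activator of class I genes, had no row named with its symbol and was not analysed here.

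NOD is an inbred strain that develops autoimmune diabetes spontaneously, and Drak2 is the kinase gene now called Stk17b. Each genotype had 6 arrays, each described as a biological replicate from 1 mouse, with replicate numbers 1 to 6 in NOD. In NOD.Drak2-/- the numbers are 1 to 5 and 7. The donors were females between 4 and 8 weeks of age in both groups, no treatment is given for either, and the deletion was not stated to be limited to any cell type. Per the labels the sorted cells were CD4+, CD8-, CD25+ and CD45RBlo, and 125 ng of RNA per sample was labelled.

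MHC class I molecules show short peptides from a cell's own proteins to CD8 T cells. A heavy chain pairs with beta-2-microglobulin in the endoplasmic reticulum, where tapasin holds the empty complex next to the TAP peptide pump until a fitting peptide binds. The peptides come from proteasomes, and in lymphocytes the catalytic subunits of the standard proteasome are largely replaced by the immunoproteasome subunits that Psmb8, Psmb9 and Psmb10 encode. Interferons raise nearly all of these genes together, and class I recognition of islet beta cells is part of the disease in NOD mice.

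According to RefSeq (assembly GRCm38.p6, of the strain C57BL/6J), 7 of the 9 measured genes lie in the MHC region of chromosome 17, in the order Tapbp, H2-K1, Psmb9, Tap1, Psmb8, Tap2 and H2-D1. B2m lies on chromosome 2 and Psmb10 on chromosome 8, and none lies on chromosome 1, which carries Stk17b. NOD carries a different H2-K1 allele from the reference strain, and heavy chain genes resemble each other, so the probes of a heavy chain row may bind relatives or bind the NOD allele less well. The probe sequences were not used here, and the part of such binding in the values was not tested.

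Upstream sequences from RefSeq matched 8 of the 10 genes, all but Tap2 and Nlrc5, in 9 windows because H2-K1 has 2 annotated starts 14 bases apart. The stretches before the start of the 2 heavy chain genes and of B2m are shown because their products form the surface complex and because they hold the same 2 boxes at the same distance. Each is written 5′ to 3′ on the strand of the gene and ends at the base before the start (for H2-K1 the more upstream start). Capitals mark matches to the letters searched, which were GGGGATTCC (a kappa B site), TGACG (core of the X2 box), CCAAT or its reverse complement ATTGG (core of the Y box) and GAAANNGAA (as in interferon-stimulated response elements), each on both strands. The windows are chr17:34000348-34000547 on the minus strand for H2-K1, chr17:35262894-35263093 on the plus strand for H2-D1 and chr2:122147487-122147686 on the plus strand for B2m, all in GRCm38.p6.
H2-K1: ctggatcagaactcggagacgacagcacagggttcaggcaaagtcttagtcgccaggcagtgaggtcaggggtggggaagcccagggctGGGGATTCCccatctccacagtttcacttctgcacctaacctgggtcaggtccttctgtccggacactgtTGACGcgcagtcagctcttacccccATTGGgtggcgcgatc
H2-D1: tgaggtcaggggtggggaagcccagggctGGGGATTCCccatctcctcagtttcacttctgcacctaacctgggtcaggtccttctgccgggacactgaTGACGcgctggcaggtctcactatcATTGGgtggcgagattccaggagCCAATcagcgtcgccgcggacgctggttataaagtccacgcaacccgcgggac
B2m: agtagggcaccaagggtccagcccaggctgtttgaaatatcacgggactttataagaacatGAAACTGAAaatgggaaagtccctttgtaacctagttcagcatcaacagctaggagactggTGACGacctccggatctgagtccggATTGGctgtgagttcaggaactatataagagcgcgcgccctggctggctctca

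In all 3 sequences TGACG is followed by ATTGG with 25 bases from the first letter of one to the first letter of the other. Among 32851 upstream windows of 250 bases, 30 (0.0913%) held the 2 boxes at that distance on either strand. These 30 windows belonged to 26 genes, of which 3 were H2-K1, H2-D1 and B2m and 1 more was the class I heavy chain gene H2-M3. The distance searched was the one held by the 3 sequences shown, so that these 3 genes were found is not a test. The kappa B letters occurred in 0.213% of all windows and, among the class I genes, before H2-K1 and H2-D1, at 111 and 171 bases before the start. Over 190 aligned bases the upstream windows of these heavy chain genes were 87.9% identical. The interferon-element letters occurred before B2m, 139 bases from its start, and in 7.13% of all windows.

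Tap1 and Psmb9 are transcribed away from each other, and the 225 bases between their starts serve as the upstream region of both genes. That interval, chr17:34187331-34187555 of GRCm38.p6, is shown on the strand of Tap1 (plus) because both genes share it. It holds 1 match to TGACG and 1 to CCAAT.
Tap1 and Psmb9: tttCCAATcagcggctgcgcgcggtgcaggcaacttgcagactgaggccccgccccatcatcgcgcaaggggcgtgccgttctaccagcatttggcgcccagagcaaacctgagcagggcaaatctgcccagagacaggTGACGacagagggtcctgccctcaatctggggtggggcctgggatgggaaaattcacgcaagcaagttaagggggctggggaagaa

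A match says only that the letters are there. TGACG alone was found in 17.8% and CCAAT or its reverse complement in 33.8% of all windows.

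**Figure D1:**
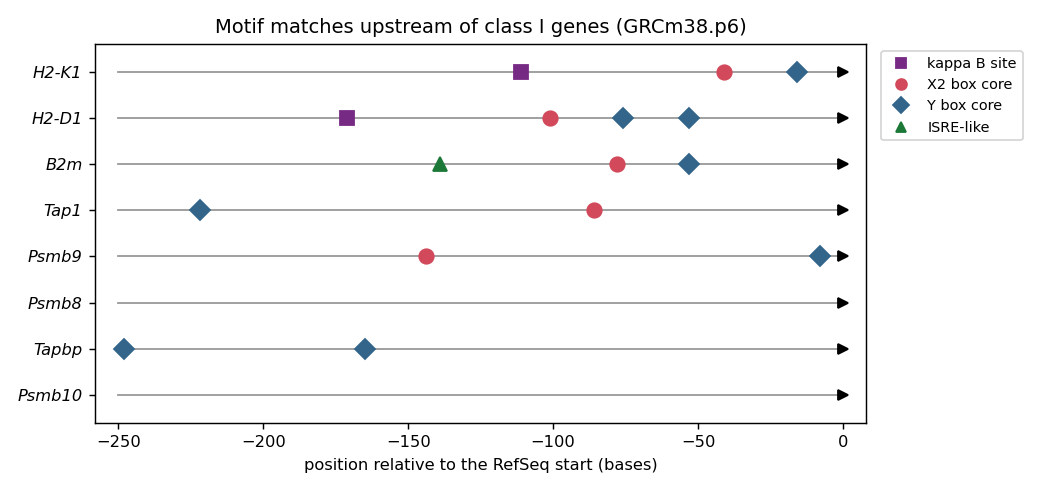
Motif matches in the 250 bases before the RefSeq start of 8 class I genes, by the distance of the first matched base from the start (x axis, in bases), with a marker for each kind of match and an arrowhead at the start. The X2 and Y matches of H2-K1, H2-D1 and B2m are 25 bases apart in each gene, and no match was found before Psmb8 or Psmb10.

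No difference between the genotypes was detected for any of the 9 class I genes. Values are log2 intensities after RMA, a method that subtracts background, equalises the spread of values between arrays and combines probes into one value per row, so a difference of 1 is a doubling. By limma, fitted over all genes with Benjamini-Hochberg adjustment, 0 of 9 passed an adjusted p of 0.05, where 0.0205% of all genes did. At an unadjusted p under 0.05 there were also 0 of 9, beside 9.43% of all genes. The arrays of the genotypes overlapped for 9 of 9 genes, whereas they did not overlap for 0.513% of all genes. The median difference (NOD.Drak2-/- minus NOD throughout) was 0.01 over the 9 genes and -0.02 over all genes. Of the 9 differences 6 were positive and 3 negative, from -0.11 for Tap2 to 0.34 for Tapbp.

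Every class I gene was above the brightest row of antigenomic background probes, which have no target in the genome, on all 12 arrays. The smallest margin on any array was 0.32 for Tap2 and 1.25 for Psmb10, and at least 2.42 for the other 7 genes. Because the arrays measure RNA from many cells, a change in the share of expressing cells and a change in RNA per cell cannot be told apart.

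**Figure D2:**
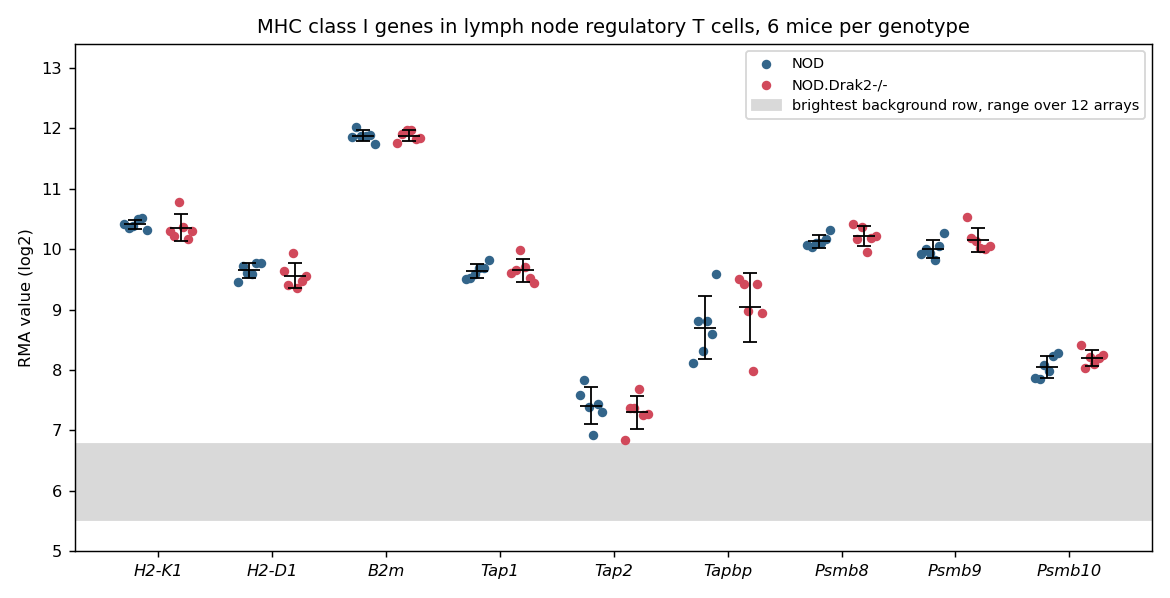
RMA values (y axis, log2) of 9 class I genes on the 6 NOD and 6 NOD.Drak2-/- arrays. Points are single mice, bars are the mean ± SD, and the grey band is the range over arrays of the brightest background row (5.51 to 6.77). The genotypes overlap for each gene, the points of B2m lie closest together, and those of Tapbp spread most.

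B2m, the light chain of every class I complex, was the steadiest of the set. In NOD it ran from 11.75 to 12.03 with a median of 11.87, and in NOD.Drak2-/- from 11.76 to 11.98 with a median of 11.88. The difference was 0.00 (SE 0.09, 95% interval -0.20 to 0.20, adjusted p = 0.995 in limma), which as a fold is an interval of 0.872 to 1.15. Its residual SD of 0.09 was larger than that of 0.579% of genes only.

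The heavy chain gene H2-K1 ran from 10.32 to 10.51 (median 10.40) in NOD and from 10.16 to 10.79 (median 10.30) in NOD.Drak2-/-. A single mouse, NOD.Drak2-/- replicate 3, made up the upper end, and 5 of 6 NOD.Drak2-/- arrays were below the NOD mean. The difference was -0.06 (SE 0.11, 95% interval -0.30 to 0.19, adjusted p = 0.890 in limma). H2-D1, the other classical heavy chain measured, ran from 9.45 to 9.78 (median 9.66) in NOD and from 9.36 to 9.94 (median 9.51) in NOD.Drak2-/-. Its highest value was again that of NOD.Drak2-/- replicate 3, with 5 of 6 arrays of that genotype below the NOD mean. The difference was -0.09 (SE 0.12, 95% interval -0.34 to 0.16, adjusted p = 0.819 in limma). For both heavy chains the direction of the 5 arrays is opposite to that of replicate 3, and without it the differences were -0.14 for H2-K1 (adjusted p = 0.613) and -0.17 for H2-D1 (adjusted p = 0.591).

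Tap1 and Tap2 encode the 2 chains of the peptide pump. Tap1 ran from 9.50 to 9.83 (median 9.63) in NOD and from 9.44 to 9.98 (median 9.63) in NOD.Drak2-/-, with 3 of 6 arrays above the NOD mean. Its difference was 0.01 (SE 0.11, 95% interval -0.22 to 0.25, adjusted p = 0.973 in limma). Tap2 ran from 6.92 to 7.83 (median 7.41) in NOD and from 6.84 to 7.69 (median 7.32) in NOD.Drak2-/-. The lowest array of each genotype, NOD replicate 4 and NOD.Drak2-/- replicate 1, stood below the rest, and the groups overlapped over nearly their whole ranges. The difference of Tap2 was -0.11 (SE 0.16, 95% interval -0.44 to 0.22, adjusted p = 0.840 in limma). It was -0.02 without NOD.Drak2-/- replicate 1, -0.03 without NOD replicate 2, -0.19 without NOD.Drak2-/- replicate 4 and -0.21 without NOD replicate 4 (adjusted p from 0.611 to 0.983 in these 4 fits), and -0.03 with the mean of the background rows as a covariate (adjusted p = 0.985).

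Tapbp, which encodes tapasin, had the largest difference of the set and the least certain one. It ran from 8.11 to 9.59 (median 8.70) in NOD and from 7.97 to 9.50 (median 9.20) in NOD.Drak2-/-, so that NOD.Drak2-/- held the lowest value of all 12 arrays and NOD the highest. The difference was 0.34 (SE 0.26, 95% interval -0.22 to 0.90, adjusted p = 0.694 in limma), and 5 of 6 NOD.Drak2-/- arrays were above the NOD mean. Its residual SD of 0.55 exceeded that of 96.9% of genes. Without NOD.Drak2-/- replicate 4 the difference was 0.55 (adjusted p = 0.327), and without NOD replicate 6 it was 0.52 (adjusted p = 0.488).

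The level of Tapbp moved with the background rows of the arrays, as was seen after its values were known. The 4 arrays with the highest Tapbp were NOD replicate 6 (9.59) and NOD.Drak2-/- replicates 1 (9.50), 5 (9.42) and 2 (9.41), and their means over the 23 background rows, 3.58, 3.73, 3.62 and 3.84, were the 4 highest. The 2 arrays with the lowest Tapbp, NOD.Drak2-/- replicate 4 and NOD replicate 1, had the 2 lowest background means, 3.39 and 3.40. With that mean as a covariate the difference of Tapbp was 0.04 (adjusted p = 0.983).

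The 3 immunoproteasome subunits lay slightly higher in NOD.Drak2-/- on average, within the spread between mice. Psmb8, the chymotrypsin-like subunit, ran from 10.04 to 10.32 (median 10.10) in NOD and from 9.96 to 10.42 (median 10.20) in NOD.Drak2-/-. The difference was 0.09 (SE 0.11, 95% interval -0.14 to 0.31, adjusted p = 0.807 in limma). Psmb9, which takes the place of Psmb6, ran from 9.82 to 10.27 (median 9.97) in NOD and from 10.01 to 10.53 (median 10.09) in NOD.Drak2-/-. Its difference was 0.15 (SE 0.12, 95% interval -0.10 to 0.40, adjusted p = 0.691 in limma), with 6 of 6 NOD.Drak2-/- arrays above the NOD mean and the top value in NOD.Drak2-/- replicate 1.

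Psmb10, which takes the place of Psmb7, ran from 7.84 to 8.28 (median 8.03) in NOD and from 8.03 to 8.41 (median 8.21) in NOD.Drak2-/-. The difference was 0.15 (SE 0.11, 95% interval -0.09 to 0.39, adjusted p = 0.674 in limma), and 5 of 6 arrays were above the NOD mean. As a fold the intervals of Psmb8, Psmb9 and Psmb10 reached at most 1.24, 1.32 and 1.31. Two-sided exact permutation tests over the 924 regroupings of the 12 arrays gave p = 0.286, 0.177 and 0.143 for these 3 genes, and the last of these was the smallest among the 9 class I genes. Without NOD.Drak2-/- replicate 1, the highest array for each of the 3, the differences were 0.05 for Psmb8, 0.08 for Psmb9 and 0.11 for Psmb10 (adjusted p = 0.925, 0.870 and 0.818). With the mean of the background rows as a covariate they were 0.05, 0.09 and 0.13 (adjusted p = 0.952, 0.912 and 0.849). Without NOD.Drak2-/- replicate 4 the difference of Psmb8 was 0.14 (adjusted p = 0.569).

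The standard subunits that are replaced had negative differences, which did not pass the test. Psmb6 ran from 9.39 to 9.84 in NOD and from 9.14 to 9.91 in NOD.Drak2-/- (difference -0.17, adjusted p = 0.702 in limma), and Psmb7 from 9.10 to 9.83 and from 8.99 to 9.71 (difference -0.19, adjusted p = 0.711). With the mean of the background rows as a covariate these differences were -0.07 for Psmb6 (adjusted p = 0.944) and -0.03 for Psmb7 (adjusted p = 0.979). Psmb5, the counterpart of Psmb8, had no row with its symbol. A within-array contrast, added after these values were seen, gave Psmb9 minus Psmb6 as 0.31 ± 0.29 among NOD mice and 0.63 ± 0.37 among NOD.Drak2-/- mice (SD, n = 6 each). The change of 0.32 in this contrast had an exact permutation p of 0.123. Psmb10 minus Psmb7 was -1.46 ± 0.36 in NOD and -1.12 ± 0.33 in NOD.Drak2-/- (SD, n = 6 each), a change of 0.34 with an exact permutation p of 0.115. Adjusted over these 2 contrasts each p was 0.123, and in each 5 of 6 NOD.Drak2-/- arrays exceeded the NOD mean. With the background covariate the changes were 0.15 and 0.16. Leaving out 1 array gave 0.22 to 0.44 for the first contrast and 0.25 to 0.47 for the second, lowest without NOD.Drak2-/- replicate 1 and highest without NOD replicate 6.

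**Figure D3:**
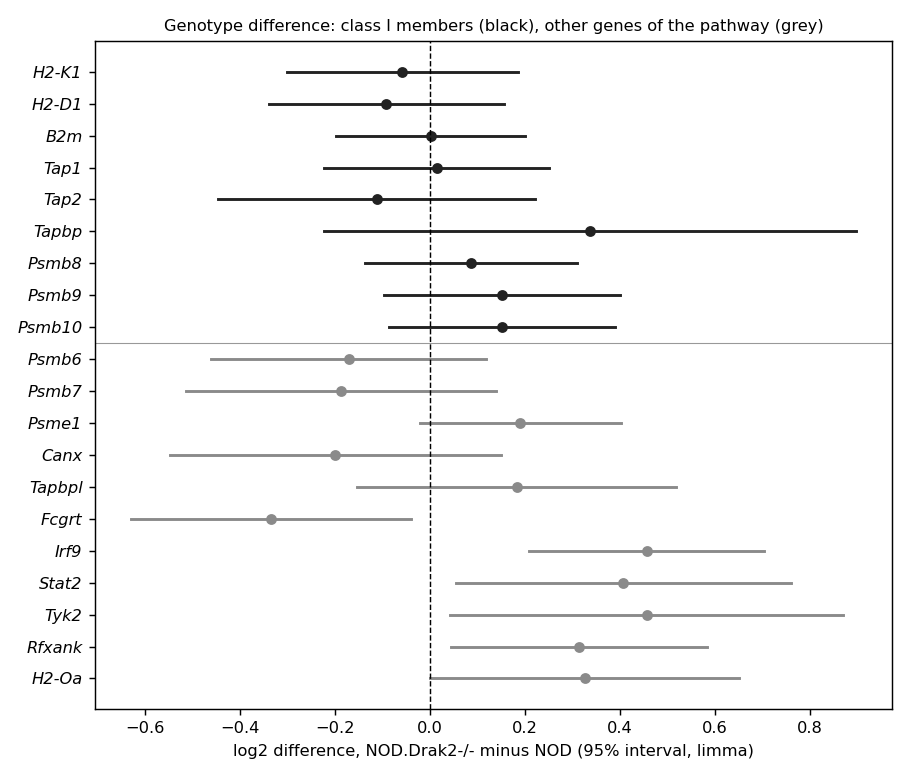
Difference between the genotypes (x axis, log2, NOD.Drak2-/- minus NOD) with its 95% interval from limma for the 9 class I genes (black) and other genes of the pathway (grey). The intervals of all 9 class I genes cross 0, the widest being that of Tapbp (-0.22 to 0.90). Before adjustment for multiple testing, the intervals of Irf9, Stat2, Tyk2, Rfxank and H2-Oa lie above 0 and that of Fcgrt below 0.

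Genes around the pathway gave a similar picture on the side of presentation. Of 18 other class I heavy chain genes listed, 15 were measured and 0 passed in limma over all genes, with a median difference of 0.03. On average 5 of these 15 were not above the brightest background row, so their rows say little about expression. Before adjustment 1 of the 15 had p under 0.05, beside 9.43% of all genes. This was Fcgrt, which encodes a receptor that carries immunoglobulin G (difference -0.33, adjusted p = 0.508), and at means of 3.63 in NOD and 3.29 in NOD.Drak2-/- that row was in the background range. Of 9 peptide loading and trimming genes 8 were measured, 0 passed and 0 had an unadjusted p under 0.05, and the median was -0.03. The smallest p-values there belonged to Canx, the chaperone calnexin (difference -0.20, adjusted p = 0.711), and Tapbpl, the tapasin relative TAPBPR (0.18, adjusted p = 0.723).

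Proteasome activators and standard subunits (7 of 8 measured) likewise had 0 members past the threshold, 0 at an unadjusted p under 0.05 and a median of -0.02. The nearest was Psme1, a subunit of the interferon-inducible activator PA28. It ran from 10.82 to 11.12 (median 10.99) in NOD and from 11.08 to 11.39 (median 11.14) in NOD.Drak2-/-, and 6 of 6 arrays of the latter were above the NOD mean. The difference was 0.19 (SE 0.10, 95% interval -0.02 to 0.40, adjusted p = 0.562 in limma). Before any adjustment over genes, limma gave p = 0.0733 and the exact permutation test p = 0.00649. The top value, 11.39 in NOD.Drak2-/- replicate 1, stood above the rest. The difference was 0.15 with the background row mean as a covariate (adjusted p = 0.807). Psme2, the partner subunit in PA28, differed by -0.02 (adjusted p = 0.968 in limma), with 3 of 6 NOD.Drak2-/- arrays above the NOD mean.

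Among regulators of class I transcription, several genes had small p-values before adjustment and none after it. Of 23 listed 21 were measured, 0 passed over all genes, and 4 had an unadjusted p under 0.05, all 4 with a positive difference. Beside the 9.43% of all genes at that level, 4 of 21 is a description and was not tested as a list. Irf9, Stat2 and Tyk2 belong to interferon signalling. Other measured interferon-signalling genes of the list differed less: Ifngr1 0.20, Irf1 0.09, Ifnar1 0.06, Ifnar2 0.05, Ifngr2 0.02, Irf2 0.00, Socs1 -0.04, Jak2 -0.06 and Jak1 -0.13. Irf9, the DNA-binding subunit of the interferon-activated complex ISGF3, ran from 8.17 to 8.52 (median 8.23) in NOD and from 8.48 to 8.94 (median 8.84) in NOD.Drak2-/-, a difference of 0.46 (95% interval 0.21 to 0.70, adjusted p = 0.413 in limma). Stat2, a partner in that complex, differed by 0.41 (95% interval 0.06 to 0.76, adjusted p = 0.504), and Tyk2, a kinase of the type I interferon receptor, by 0.46 (95% interval 0.04 to 0.87, adjusted p = 0.512). Rfxank, a subunit of the RFX complex that binds the X box, differed by 0.31 (95% interval 0.05 to 0.58, adjusted p = 0.497). The other RFX subunits of the list, Rfx5 and Rfxap, differed by -0.09 and 0.00 (adjusted p = 0.921 and 0.995 in limma). In the limma fit with the background row mean as a covariate, Irf9 differed by 0.41 and Stat2 by 0.30 (adjusted p = 0.632 and 0.763). Tyk2 differed by 0.34 and Rfxank by 0.22 in that fit (adjusted p = 0.766 and 0.756).

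Across the 12 mice the class I genes did not vary as a single block. Of 36 pairs of genes 23 had a positive and 13 a negative Pearson correlation over the 12 arrays, with a median of 0.20 and a range from -0.64 to 0.79. The 2 highest Pearson correlations were between immunoproteasome subunits, and the next was that of Tapbp with Psmb8. Psmb8 and Psmb10 gave r = 0.79 (permutation p = 0.0024, adjusted p = 0.0428 over the 36 pairs) and rho = 0.82 (permutation p = 0.0018, adjusted p = 0.0540). The r was 0.87 within NOD and 0.77 within NOD.Drak2-/-, and 0.82 without the 2 arrays farthest from the median of Psmb8.

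Psmb8 and Psmb9 gave r = 0.77 (permutation p = 0.0024, adjusted p = 0.0428) and rho = 0.71 (permutation p = 0.0124, adjusted p = 0.0891), with r = 0.73 without the 2 farthest arrays. Psmb9 and Psmb10 gave r = 0.71 (permutation p = 0.0083, adjusted p = 0.0746) and rho = 0.76 (permutation p = 0.0055, adjusted p = 0.0629), and r was 0.43 without the 2 farthest arrays. Tapbp followed Psmb8 with r = 0.75 (permutation p = 0.0051, adjusted p = 0.0608) and rho = 0.80 (permutation p = 0.0030, adjusted p = 0.0540), and r was 0.61 without the 2 farthest arrays. NOD.Drak2-/- replicate 1 and NOD replicate 6 were at or near the top of these genes, while NOD replicates 1 to 4 were below the mean of each.

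The number of pairs past an adjusted p of 0.05 was 2 of 36 by Pearson and 0 of 36 by Spearman correlation, and 12 pairs had an unadjusted Pearson p under 0.05. With the genotype means removed 0 pairs passed. Leaving out 1 array gave 0 to 6 pairs, with 6 without NOD replicate 4 and 4 without NOD.Drak2-/- replicate 2 or 3. The count was 0 when the array left out was 1, 2, 3, 5 or 6 of NOD, or 1, 5 or 7 of NOD.Drak2-/-. All values of an array share its RNA, labelling and normalization.

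B2m and Tap2 correlated positively with each other and negatively with the immunoproteasome genes, with no pair past the adjusted threshold. Their own correlation was r = 0.66 (permutation p = 0.0179, adjusted p = 0.0943) and rho = 0.64 (permutation p = 0.0283, adjusted p = 0.127), and r was 0.62 without the 2 farthest arrays. Tap2 and Psmb8 gave r = -0.64 (permutation p = 0.0266, adjusted p = 0.106) and rho = -0.75 (permutation p = 0.0070, adjusted p = 0.0629), and r was -0.36 without the 2 farthest arrays. These 2 genes follow each other in the order along chromosome 17 given above. Tap2 gave r = -0.38 with Psmb9 and -0.58 with Psmb10, but 0.20 and -0.10 without the 2 arrays farthest for Tap2. B2m gave r = -0.53, -0.44 and -0.58 with Psmb8, Psmb9 and Psmb10, and -0.35, -0.35 and -0.32 without the 2 arrays farthest for B2m. The heavy chains H2-K1 and H2-D1 gave r = 0.66 (permutation p = 0.0183, adjusted p = 0.0943) and rho = 0.43 (permutation p = 0.169, adjusted p = 0.339). That relation rested on NOD.Drak2-/- replicates 3 and 5, since r was 0.29 without them, -0.16 within NOD and 0.83 within NOD.Drak2-/-.

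**Figure D4:**
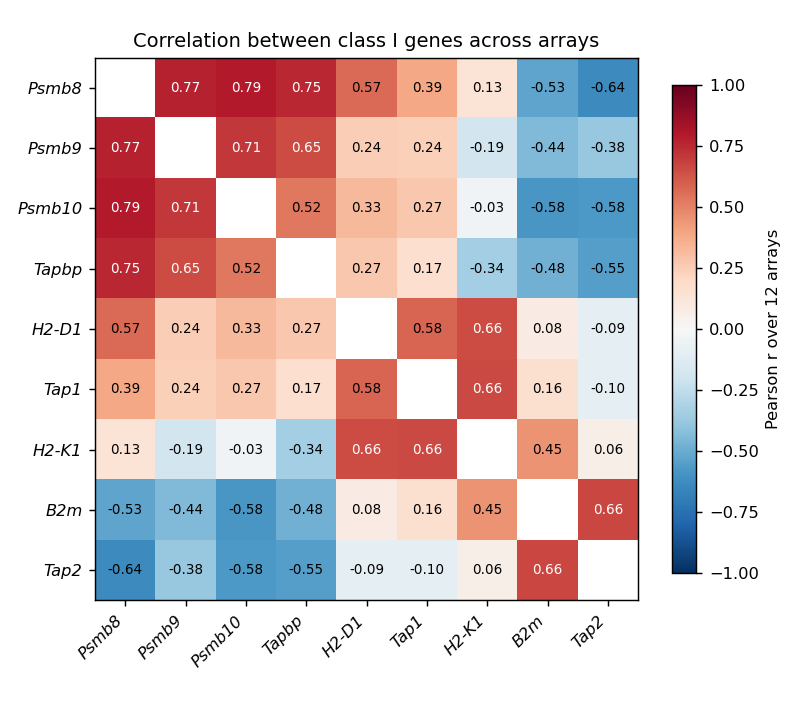
Pearson correlation over 12 arrays for each pair of the 9 class I genes, from -1 (blue) to 1 (red). Psmb8, Psmb9, Psmb10 and Tapbp form a block of positive values between 0.52 and 0.79, and B2m and Tap2 are negative against all 4 of them.

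**Figure D5:**
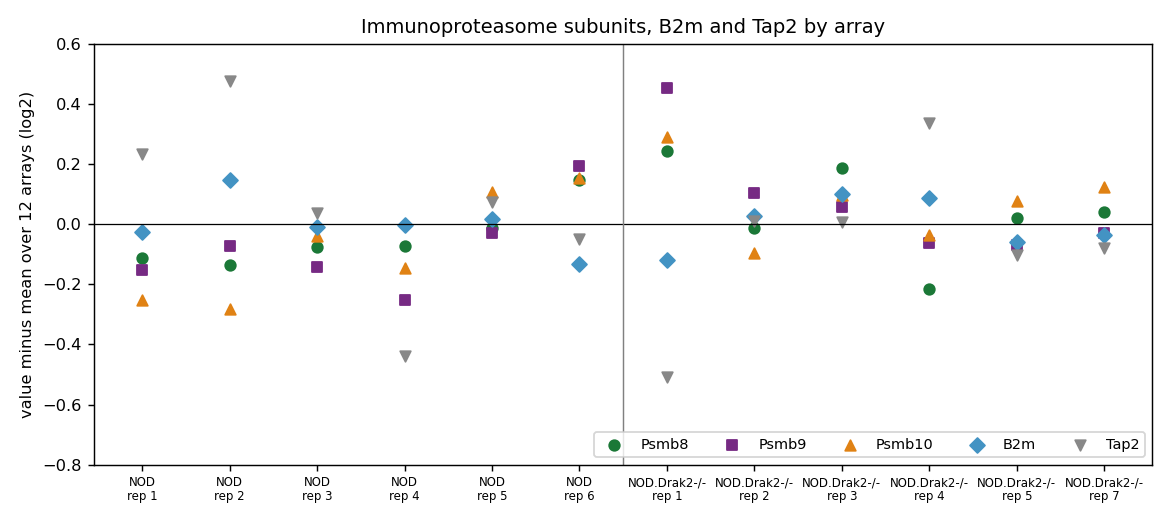
Values of Psmb8, Psmb9, Psmb10, B2m and Tap2 on each of the 12 arrays as deviations from the gene's mean (y axis, log2). The labels do not say whether equal replicate numbers pair mice. The 3 immunoproteasome genes are all above their means in NOD replicate 6 and NOD.Drak2-/- replicates 1 and 3, and B2m and Tap2 are below theirs in the first 2 of these.

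Averaged over the 9 genes, each centred on its own mean, the highest arrays were NOD.Drak2-/- replicate 3 (0.18) and NOD replicate 6 (0.15), and the lowest were NOD replicate 1 (-0.15) and NOD.Drak2-/- replicate 4 (-0.11). Tapbp, with its wide spread, carried much of this average. Without it, as computed after the values were seen, NOD.Drak2-/- replicate 3 (0.19) and NOD replicate 6 (0.08) were still the highest, and the lowest were NOD replicate 4 (-0.10) and NOD.Drak2-/- replicate 5 (-0.08), while NOD.Drak2-/- replicate 4 was at -0.01. The 5 other genes most like this average over the 12 arrays were Ifi27l2a (r = 0.92), Atpaf1 (0.88), Cotl1 (0.88), Isg20 (0.87) and Gsdmd (0.86), picked as the highest of all other genes and therefore given with no p. Against the average without Tapbp the same 5 genes gave r = 0.73, 0.70, 0.57, 0.61 and 0.52. Ifi27l2a and Isg20 are interferon-inducible genes, Gsdmd encodes the pore protein gasdermin D, Cotl1 an actin-binding protein and Atpaf1 an assembly factor of the mitochondrial ATP synthase. Their differences between the genotypes were 0.36, 0.15, 0.03, 0.42 and 0.22, and none passed in limma (adjusted p = 0.535, 0.692, 0.932, 0.517 and 0.624).

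As to the samples as a whole, array medians over the genes tested were 5.18 to 5.34, and arrays correlated at 0.968 to 0.991 across genes, which are not independent replicates. Stk17b ran from 10.21 to 10.80 in NOD and from 9.97 to 10.36 in the arrays labelled NOD.Drak2-/- (difference -0.27, adjusted p = 0.517 in limma). Its row overlapped between the genotypes and so does not check the label of a single array. Of the markers of T cells and regulatory T cells, 9 of 10 were measured and 8 were above the brightest background row on average, led by Cd3d. Il2ra was not above it, and Foxp3 had no row with its symbol, so neither checks the sort. Mean levels of this list ran from 9.77 to 9.94 in NOD and from 9.73 to 9.94 in NOD.Drak2-/-.

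Since nearly all nucleated cells express class I genes, markers of other cells were set beside them. B cell markers (7 of 8 measured) averaged 4.75 to 5.13 in NOD and 4.64 to 5.36 in NOD.Drak2-/-, and 6 of 7 were not above the brightest background row. The other was Cd79b, at 5.89 in NOD and 6.37 in NOD.Drak2-/- (adjusted p = 0.436 in limma). Of the 7 B cell markers 3 differences were positive and 4 negative, with a median of -0.11. Myeloid and dendritic markers (10 of 10 measured) averaged 4.11 to 4.47 and 4.17 to 4.51, with 0 of 10 above that row and Lyz2 the brightest. Markers of CD8 T and NK cells averaged 4.51 to 4.95 and 4.40 to 4.96, with 2 of 6 above it, the brightest being Cd8b1 at 7.27 and 7.45. Stromal and endothelial markers averaged 4.97 to 5.23 and 4.94 to 5.18, with 2 of 7 above it, led by Pecam1, which T cells also express. Heat shock and dissociation genes averaged 7.09 to 7.43 and 6.98 to 7.71, led by Dnajb1. The part of other cells in the values of the class I genes was not tested. In a fit with the mean of the B cell and myeloid markers as a covariate 0 of the 9 passed, as without it. Most of these markers were not above the brightest background row, so that fit cannot measure the part of other cells.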

How the data were processed

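Regulatory T cell RNA from 12 mice was measured on 12 arrays of 1 colour. The values are the authors' deposited log2 table. Per the submitters' processing notes it was made with RMA and the R package oligo, and neither a version nor a genome build is given in the sources used here. Of 29129 rows, 19572 carried exactly 1 gene symbol in the platform annotation. The brightest row per gene was kept, which dropped 67 and left 19505 genes, with no filter on dim genes. Array values have no counts, so precision is limited by how many arrays there are.

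The genotypes were compared with limma 3.58.1 (R 4.3.3), using lmFit and eBayes without covariates, with p adjusted by Benjamini-Hochberg over all genes with a threshold of 0.05. Correlations used 100000 permutations, two-sided. The limma step was tested on simulated data. The members and lists were chosen with earlier results of these data known. The genes named were the members, Psmb6, Psmb7 and Stk17b. From each pathway list came the genes at an unadjusted p under 0.05, or otherwise the 2 smallest p-values, from each marker list the brightest gene, and the 5 genes most like the members. Genes named beyond these were chosen after their values were seen. Alternatives covered rows, filter, scaling, moderation, weights, covariates, the replicate block and leaving out arrays.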

Additional observations from a re-analysis of the deposited data

Results flagged for a closer look

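In 64 groups of 6 arrays, a single array stood apart in 6, by a gap to its neighbour above Dixon's 95% critical value as a share of the group's range, and chance gives about 1 in 20 groups, here 3.2. H2-K1 was 10.79 in NOD.Drak2-/- replicate 3, above the rest. Tapbp was 7.97 in NOD.Drak2-/- replicate 4, below the rest. Psmb9 was 10.53 and Psme1 11.39 in NOD.Drak2-/- replicate 1, each above the rest. Stk17b was 9.97 in NOD.Drak2-/- replicate 2 and Lyz2 was 4.86 in NOD replicate 4, each below the rest.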

How the results depend on the processing

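The count of class I genes past the threshold was 0 in each of the 9 other settings and the 12 fits that left out 1 array, and an unadjusted p under 0.05 was met by 1 gene, Tapbp, in 2 of these fits. The median difference ran from -0.02 to 0.06 when 1 array was left out and from 0.01 to 0.10 otherwise, the upper end being that of the replicate block. Of the 9 genes 6 kept their sign throughout. The differences near 0 turned: H2-K1 to 0.00807 with arrays centred on their median and to 0.00780 with the background rows as a covariate, Tap1 to -0.00332 and Cotl1 to -0.00294 with quantile normalization, Cotl1 to -0.0303 with the background rows, and B2m to -0.0170 with the replicate block. Leaving out 1 array gave -0.0244 to 0.0319 for B2m, -0.0511 to 0.0574 for Tap1 and -0.00622 to 0.0882 for Cotl1. Tapbp ranged from 0.04 with the background rows as a covariate to 0.53 with the replicate block, over the settings other than omissions. The next highest was 0.40, with arrays centred on their median. Replicate numbers 1 to 5 are shared by the genotypes, and the labels do not say whether they pair mice. Deviations of same-numbered arrays from their genotype means correlated from -0.18 to 0.09. Such correlations cannot show whether same-numbered mice were handled together. With the replicate block 0 genes of all were called, against 4 without it, and Tapbp differed by 0.53 (adjusted p = 0.630). In that fit NOD replicate 6 and NOD.Drak2-/- replicate 7 share no number with the other genotype and do not enter the difference. It therefore rests on replicates 1 to 5 of each genotype, and the effects of blocking and of fewer arrays cannot be told apart. Over all genes 1 was called with either covariate and 1 to 2 without an array. The pairs of correlated genes numbered 2, with 4 after median centring, 0 with genotype means removed, 0 by Spearman and 0 to 6 without an array, all chosen after seeing the data. The 6 mice per genotype limit the precision.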

Other observations

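The class II genes, which present peptides to CD4 T cells and mark B cells and dendritic cells more than T cells in mice, were read on the same arrays. Of 10 listed 9 were measured, 0 passed in limma over all genes, 7 differences were positive and 2 negative, and the median was 0.06. At an unadjusted p under 0.05 there was 1 of 9, beside 9.43% of all genes. This was H2-Oa, a chain of the class II modulator H2-O. Its median was 7.12 in NOD and 7.40 in NOD.Drak2-/-, the genotypes overlapped, and it gave a difference of 0.33 (95% interval 0.00 to 0.65, adjusted p = 0.527 in limma). The difference was 0.22 with the background row mean as a covariate (adjusted p = 0.807). Of the 9 genes 6 were above the brightest background row on average.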
